A study of Mus musculus with 2 samples.

Results

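The genes described here encode the proteins that fuse and divide mitochondria. They were chosen by name, as 10 listed symbols, and each symbol matched 1 gene identifier of the 55536 annotated genes in the tables: Mfn1, Mfn2 and Opa1 for fusion, Dnm1l, Mff, Fis1, Mief1 and Mief2 for fission, and Oma1 and Yme1l1, the proteases that process Opa1. RNA came from heart tissue of male B6CASTF1/J mice, F1 offspring of a cross between C57BL/6J and CAST/EiJ mice, at 14 days of age, with no treatment named. Libraries of total RNA were made from 300 ng each, in 2 biological replicates that form a single group, so no conditions could be compared. The labels mention 3 males and give both replicates one donor name, and they do not say whether animals were pooled; the spread between these libraries may therefore be partly technical.

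Mitochondria in most cells join and split continuously, and the balance sets their length and lets damaged parts be removed. The mitofusins Mfn1 and Mfn2 are GTPases that tether and merge outer membranes, and Opa1, a related GTPase of the inner membrane, merges inner membranes and shapes cristae. Division is carried out by Dnm1l, also called Drp1, a dynamin-like GTPase of the cytosol that is drawn to the outer membrane by the adaptors Mff, Fis1, Mief1 and Mief2 and constricts the organelle. Oma1 and Yme1l1 cut the long, membrane-anchored form of Opa1 into a short form, Oma1 mainly under stress. Heart muscle is packed with mitochondria, and loss of both mitofusins or of Dnm1l in cardiomyocytes is known to damage the mouse heart.

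Expected counts per library summed to 39334380 (replicate 1) and 46391250 (replicate 2), of which the 10 genes took 63824 and 74825. Heart markers were high: 6 of 6 cardiomyocyte markers were at 1 TPM or more in both libraries, led by Myh6, and their summed level was 32061 and 30577 TPM. TPM is an abundance corrected for transcript length and library size. Markers of some other cell types were unequal between the libraries. The summed level of 4 atrial markers, led by Nppa, was 1585 and 492 TPM, and that of 3 brown adipocyte markers was 39.3 and 25.04 TPM, with Cidea, the highest, at 25.8 and 22.6 TPM and Ucp1 at 9.76 and 0.32 TPM. The 7 T cell and thymus markers, led by Rag1, summed to 1.44 and 50.8 TPM, and none of them was at 1 TPM or more in both libraries. Endothelial (3 markers, led by Cdh5; 221 and 208 TPM), fibroblast (3, led by Col1a1; 430 and 367 TPM) and erythroid markers (3, led by Hbb-bs; 18871 and 18188 TPM) were nearer to each other. The 4 skeletal muscle markers, led by Tnnt3, summed to 0.16 and 0.59 TPM, with Myh1 and Myh2 listed at 0 in both libraries. In bulk tissue, fewer cells of a type and less RNA per cell cannot be told apart.

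All 10 genes were at 1 TPM or more in both libraries, against 51.8% of protein-coding genes. Their mean levels ran from 9.29 to 266 TPM, with a median of 49.2 TPM, beside a median of 9.83 TPM over the 11421 protein-coding genes at 1 TPM or more in both libraries. The level of 9 of the 10 genes was above that median, and Oma1 was the one below it. When TPM was rescaled to nuclear protein-coding genes alone, the mean levels ran from 22.0 to 628 TPM. Errors of levels are SDs over 2 libraries (n = 2) throughout.

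**Figure D1:**
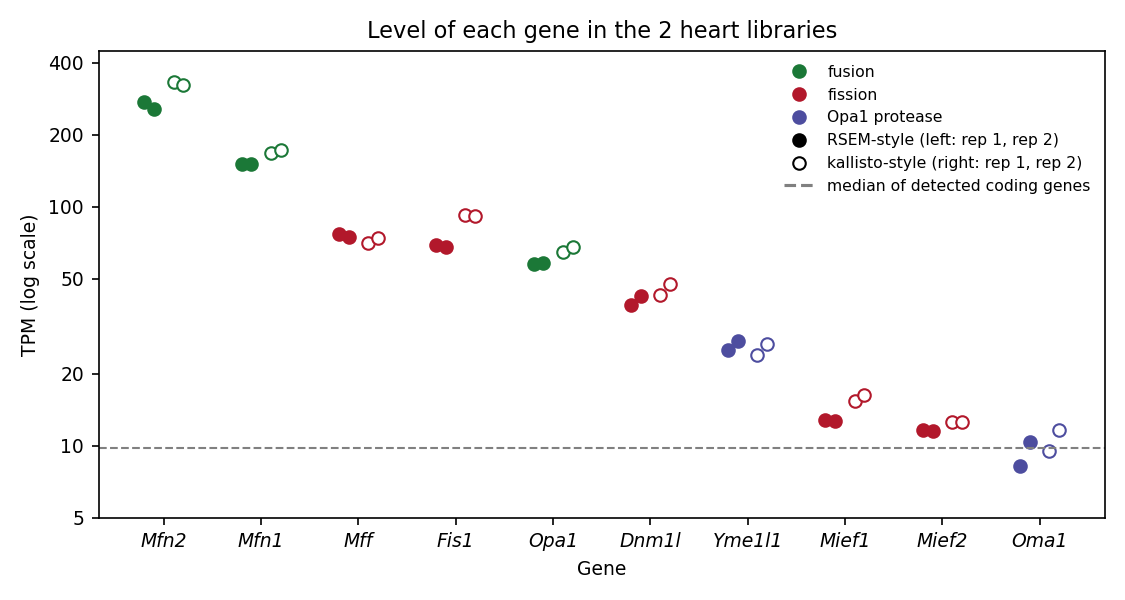
Level of each gene (TPM, log axis) in replicate 1 and replicate 2, with filled points for the RSEM-style gene table and open points for kallisto-style values summed per gene; the dashed line is the median of detected protein-coding genes, 9.83 TPM. The mitofusins stood highest and Oma1 lowest in both tables, and Mff and Fis1 changed places between the tables.

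The outer-membrane fusion genes were the most abundant. Mfn2 (ENSMUSG00000029020.13; mm10 chromosome 4, 147873599 to 147904704, minus strand), which also links mitochondria to the endoplasmic reticulum, was at 275 TPM in replicate 1 and 256 TPM in replicate 2. Its mean of 266 ± 13.4 TPM was higher than that of 98.0% of detected protein-coding genes. Mfn1 (ENSMUSG00000027668.13; chromosome 3, 32529465 to 32579239, plus strand) was at 151 and 152 TPM, above 96.5% of detected protein-coding genes. The level of Mfn2 exceeded that of Mfn1 in both libraries, and their values did not overlap. Within a library, the log2 ratio of Mfn2 over Mfn1 was 0.87 and 0.76, a mean of 0.81 ± 0.08 or 1.75-fold. The log2 ratio was 1.16 when only protein-coding transcripts were summed. Mfn1 was then at 118 in place of 151 TPM and Mfn2 at 265 in place of 266 TPM. This Mfn1 sum still held short coding models. Mfn1-204 (616 bases) was at 27.4 and 16.21 TPM on 4.69% and 2.83% of the gene's counts. Mfn1-206 (746 bases) was at 9.48 and 20.98 TPM on 2.03% and 4.59%. Mfn2 also had short coding models, Mfn2-206 (685 bases) at 8.49 and 5.41 TPM and Mfn2-207 (708 bases) at 16.68 and 12.15 TPM. The size of the ratio thus rests in part on short models.

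Opa1 (ENSMUSG00000038084.16; chromosome 16, 29579334 to 29654884, plus strand) was at 57.6 and 58.0 TPM. Its level was thus well under that of Mfn2, with log2 ratios of Opa1 over Mfn2 of -2.25 and -2.14 (mean -2.20 ± 0.08, a 4.59-fold difference in level). The Opa1 level also lay below Mfn1 in both libraries, without overlap.

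Among the fission genes, the adaptors Mff and Fis1 stood above the GTPase they recruit by gene TPM. Mff (ENSMUSG00000026150.14; chromosome 1, 82724890 to 82752394, plus strand), the main receptor for Dnm1l in many cells, was at 76.8 and 74.97 TPM. Fis1 (ENSMUSG00000019054.13; chromosome 5, 136953275 to 136966234, plus strand), a small protein anchored by its tail in the outer membrane, was at 69.3 and 68.1 TPM. Dnm1l (ENSMUSG00000022789.15; chromosome 16, 16312230 to 16358959, minus strand) was at 39.0 and 42.3 TPM, below both adaptors in both libraries. Short models enter the Mff level. Mff-204 (435 bases, incomplete) was at 10.97 and 9.27 TPM on 3.87% and 3.19% of the gene's counts. Mff-210 (586 bases, noncoding) was at 6.80 and 9.25 TPM on 3.47% and 4.61%. Summed over protein-coding transcripts, which still include Mff-204, Mff was at 61.8 and Dnm1l at 39.0 TPM. The size of the gap between Mff and Dnm1l thus rests in part on short models.

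The order of Mff and Fis1 depended on the table. The log2 ratio of Mff over Fis1 was 0.14 ± 0.0063 in the gene tables, -0.34 by kallisto-style values and -0.12 with protein-coding transcripts alone, so no order between these adaptors is given. The ratio of Opa1 over Dnm1l, the inner-membrane fusion GTPase over the fission GTPase, was 0.56 and 0.46 (mean 0.51 ± 0.07, 1.42-fold). Over all models it kept its sign in every table. The complete protein-coding Opa1 models, Opa1-201 and Opa1-206, were at 32.2 and 33.0 TPM. The protein-coding Dnm1l models, all complete, were at 37.7 and 40.4 TPM. The direction of this ratio thus rests on incomplete Opa1 models, a limit seen once the values were known.

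The remaining adaptors were several times lower. Mief1 (ENSMUSG00000022412.14; chromosome 15, 80234018 to 80253371, plus strand) was at 12.9 and 12.7 TPM, and its relative Mief2 (ENSMUSG00000018599.5; chromosome 11, 60728398 to 60732951, plus strand) at 11.7 and 11.5 TPM. Both encode outer-membrane proteins that bind Dnm1l and control its assembly. The log2 ratio of Mief1 over Mief2 was 0.14 ± 0.0047 by gene TPM and 0.33 by kallisto-style TPM. The difference was the same way in both libraries but small, and the deposited credibility bounds of the gene TPM, whose level is not given in the sources used here, overlapped: 11.5 to 14.7 TPM for Mief1 and 10.5 to 13.2 TPM for Mief2 in replicate 1. A protein-coding gene, AC140267.1, overlaps Mief1 on the same strand and was at 7.01 and 10.2 TPM, on only 24.5 and 42.7 expected counts. Mief1 also had fractional counts (1574.53 and 1903.31), so the division of reads between these genes is uncertain.

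Of the Opa1 proteases, Yme1l1 was the more abundant. Yme1l1 (ENSMUSG00000026775.9; chromosome 2, 23156369 to 23199260, plus strand), an ATP-dependent protease of the inner membrane that cuts Opa1 constitutively, was at 25.3 and 27.4 TPM. Oma1 (ENSMUSG00000035069.3; chromosome 4, 103313812 to 103371868, plus strand), a zinc metalloprotease that is activated when the inner membrane loses its potential, was at 8.23 and 10.3 TPM, the lowest of the 10 genes. The log2 ratio of Yme1l1 over Oma1 was 1.61 and 1.40 (mean 1.503 ± 0.15, 2.83-fold).

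Oma1 also rested on the fewest counts, 435 in replicate 1 (exact 95% Poisson interval 395 to 478, counting error only) and 561 in replicate 2 (516 to 609). Its coding transcript, Oma1-201, was at 7.74 and 8.01 TPM. The difference in its gene TPM lay mostly in 2 short processed transcripts, Oma1-202 and Oma1-203, which together took 5.84% of its TPM in replicate 1 and 22.5% in replicate 2.

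From the highest to the lowest level, the order by gene TPM was Mfn2, Mfn1, Mff, Fis1, Opa1, Dnm1l, Yme1l1, Mief1, Mief2 and Oma1. Every pair of neighbours in this order differed by more than the sum of their SDs without overlap of the libraries. With 2 libraries this is a description only, since an exact sign test of both libraries cannot go below p = 0.5. The kallisto-style table and the sum of protein-coding transcripts gave the same order except for Mff and Fis1, whose order is thus not settled. The place of Opa1 above Dnm1l rests on incomplete Opa1 models, as given above. The deposited credibility bounds overlapped for Mff and Fis1 and for Mief1 and Mief2 in both libraries. They also overlapped for Mief2 (10.6 to 12.9 TPM) and Oma1 (8.84 to 12.1 TPM) in replicate 2.

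Between the libraries the 10 genes differed little in size. The log2 ratio of replicate 2 over replicate 1, from counts scaled by TMM (trimmed mean of M-values), lay between -0.09 for Mfn2 and 0.09 for Oma1, and its median size was 0.05 over the 10 genes against 0.14 over the 16611 genes tested, many of which have fewer counts. Against genes within a factor of 2 of its own counts, a gene's difference exceeded that of between 4.81% (Mief1) and 62.9% (Mfn2) of them. Mff was at 11.9%, and the remaining genes lay between 27.7% (Fis1) and 52.3% (Yme1l1). Apart from Mief1 and Mff, the genes were thus not unusually close for their counts. By an exact binomial test that compares these libraries and not conditions, none of the 10 genes differed by 2-fold or more, against 3.27% of all tested genes. An unadjusted p under 0.05 was found for 4 of the 10, against 31.5% of all tested genes. At any ratio 1 of the 10 passed, against 22.0% of all tested genes.

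That gene was Mfn2, with 32648 and 37190 counts. It was 1.07-fold lower in replicate 2 (log2 ratio -0.09, exact 95% interval -0.11 to -0.07, Benjamini-Hochberg adjusted p = 1.51e-15). Its 2-sided test carries the deepest counts of the set and covers counting error only; with an assumed biological coefficient of variation of 0.1 in the edgeR exact test, its adjusted p was 1. Of the 6 cardiomyocyte markers (summed level 32061 and 30577 TPM), 4 were also lower in replicate 2, Myh6 the most (10741 and 9520 TPM), while Actc1 and Ryr2 were higher there; their part in this difference was not tested. For Dnm1l and Yme1l1 the log2 ratios were 0.06 (adjusted p = 0.114) and 0.08 (adjusted p = 0.123) by the same binomial test. When scaled by total counts they were 0.11 and 0.12, and both passed that test (adjusted p 0.00278 and 0.00751), as did 23.1% of all tested genes. With total counts the median log2 ratio over all tested genes was 0.047, against 0.0045 by TMM. Of the genes that passed with total counts, 2599 were higher and 1244 lower in replicate 2.

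**Figure D2:**
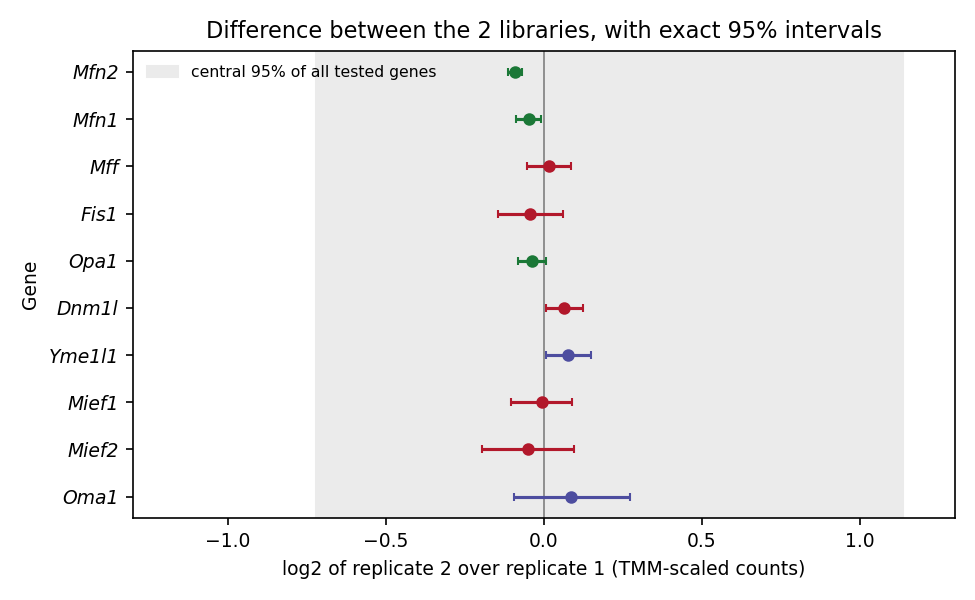
Log2 ratio of replicate 2 over replicate 1 for each gene from TMM-scaled counts, with exact 95% binomial intervals; the grey band holds the central 95% of all tested genes, and fusion genes are green, fission genes red and Opa1 proteases blue. All 10 points lie between -0.09 and 0.09, well inside the band, and the interval of Oma1 is the widest.

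Total RNA also contains unspliced and partly processed RNA, so the annotated class of each gene's transcripts was described next. Transcripts annotated as protein-coding held 99.6 ± 0.02% of the TPM of Mfn2, 98.0 ± 0.10% of Opa1, 97.9 ± 0.35% of Fis1 and 96.1 ± 0.91% of Dnm1l. The share was lower for Mff (81.4 ± 2.09%), Mief1 (78.7% in both libraries), Mfn1 (78.0 ± 1.14%), Mief2 (77.8 ± 1.17%) and Yme1l1 (72.7 ± 0.70%). It was 94.2% and 77.5% for Oma1, the widest gap between the libraries among the 10 genes in this table.

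Much of the noncoding share came from very short transcripts. Mfn1-210, an intron-retaining transcript of 246 bases, took 14.2% and 16.5% of Mfn1 TPM on 96.2 and 134 expected counts, or 1.04% and 1.24% of the gene's counts. It was listed at 0 in the kallisto-style table. That table instead gave 12.2% and 13.6% of Mfn1 TPM to Mfn1-205, an intron-retaining transcript of 668 bases. Mfn1-205 took 1.19% and 1.49% in the RSEM-style table. Yme1l1-206, a processed transcript of 628 bases, took 19.9% and 22.6% of Yme1l1 TPM in the RSEM-style table and 1.84% and 0.71% in the kallisto-style table. In the kallisto-style table protein-coding transcripts held 90.5 ± 0.89% of Yme1l1 and 84.9 ± 0.78% of Mfn1. For Fis1 the tables differed the other way, with 82.6 ± 1.60% protein-coding by kallisto-style values.

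**Figure D3:**
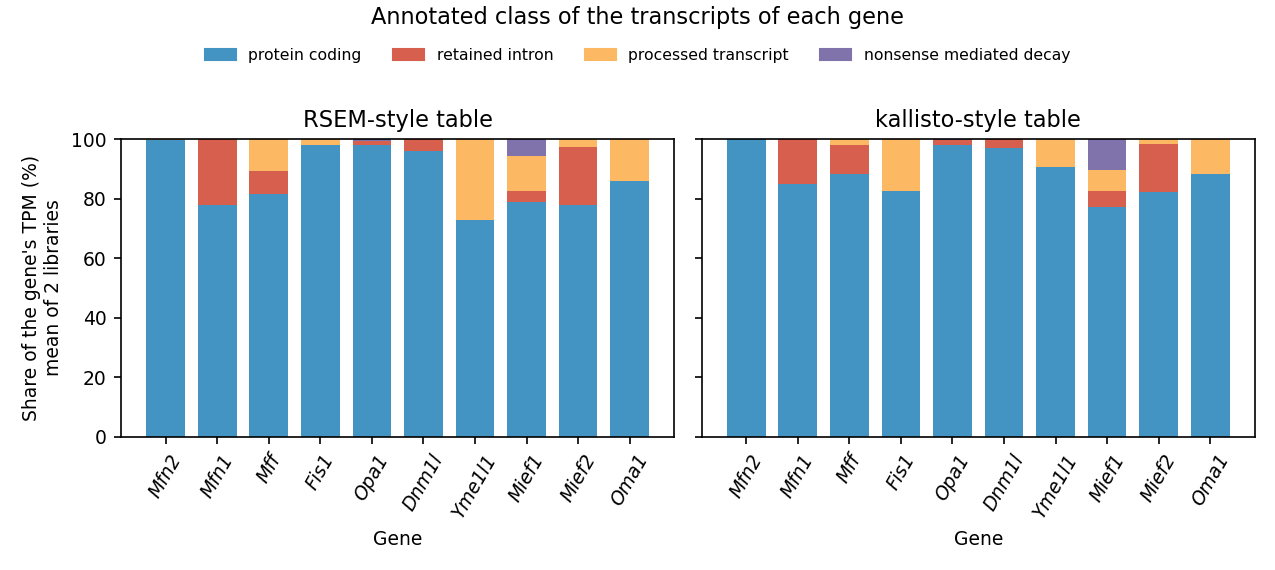
Share of each gene's TPM (percent, mean of 2 libraries, stacked bars) in protein-coding, intron-retaining, processed and nonsense-mediated decay transcripts, for the RSEM-style table on the left and the kallisto-style table on the right. The noncoding share of Yme1l1 was 27.3% on the left and 9.53% on the right, while Mfn2 was almost wholly protein-coding in both.

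Opa1 and Dnm1l are both spliced into several forms, and their alternative coding exons are shown here because the transcript shares turn on them. Each line gives the exon in capitals between 15 bases of its neighbouring exons in lower case, 5′ to 3′ on the gene's strand, from the GENCODE M21 transcripts (mm10).
Opa1 exon of 54 bases: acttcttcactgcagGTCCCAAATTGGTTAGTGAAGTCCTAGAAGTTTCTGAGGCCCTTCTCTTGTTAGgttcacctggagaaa
Opa1 exon of 111 bases: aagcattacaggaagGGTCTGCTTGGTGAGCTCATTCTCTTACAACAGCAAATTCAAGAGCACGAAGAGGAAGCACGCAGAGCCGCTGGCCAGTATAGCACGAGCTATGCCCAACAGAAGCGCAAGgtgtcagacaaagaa
Dnm1l exon of 39 bases: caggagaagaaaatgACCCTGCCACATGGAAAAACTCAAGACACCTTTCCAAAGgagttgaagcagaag
Dnm1l exon of 78 bases: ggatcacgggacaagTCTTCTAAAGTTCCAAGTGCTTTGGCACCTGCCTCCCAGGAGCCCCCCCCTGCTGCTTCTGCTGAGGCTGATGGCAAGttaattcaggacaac
Dnm1l exon of 33 bases: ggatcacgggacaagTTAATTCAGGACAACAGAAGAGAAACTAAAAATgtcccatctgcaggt

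The Opa1 exons lie at chr16:29588823-29588876 (54 bases) and chr16:29597586-29597696 (111 bases), and their lengths keep the reading frame. In transcripts that skip the 111-base exon, the flanks join as aagcattacaggaaggtgtcagacaaagaa. The segment of Opa1 that these exons fall in carries the sites cut by Oma1 and Yme1l1, which is why its splicing is of interest beside the protease levels.

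The leading Opa1 transcript was Opa1-206, of 6230 bases, which lacks both exons. It was at 32.2 and 32.0 TPM, or 55.9% and 55.1% of the gene (55.5 ± 0.52%). Opa1-207, with the 111-base exon alone and annotated with an incomplete end, was at 16.2 and 13.9 TPM, or 28.2% and 24.0%. Opa1-208, with both exons, took 13.9% and 17.2%, but it is also an incomplete model, of 888 bases, and rested on 193 and 289 expected counts. Opa1-201, with the 54-base exon alone, was at 0 and 0.99 TPM by the RSEM-style table and at 13.2% and 13.7% of the gene's TPM by the kallisto-style table, so its level is uncertain. The 3 intron-retaining transcripts together held 1.31 ± 0.19% of the gene's TPM, and the nonsense-mediated decay transcript held 0.68 ± 0.29%.

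Summed over the transcripts that hold it, the 111-base exon was included in 43.0% and 42.0% of protein-coding Opa1 TPM that spans it (42.5 ± 0.64%), and in 36.5% and 37.2% by kallisto-style values. As a share of expected counts it was 21.1 ± 1.32%; the models with the exon, of 3153 and 888 bases, are shorter than Opa1-206. Inclusion of the 54-base exon was 14.2% and 19.3% (16.7 ± 3.63%) by the RSEM-style table and 18.5% and 25.0% by the kallisto-style table. As a share of expected counts it was 3.44 ± 1.35%. With incomplete models left out, a choice made once the values were known, it was 1.501% by the RSEM-style and 21.7% by the kallisto-style table. The 111-base exon has no value on that basis, since 0 complete protein-coding models hold it and its inclusion rests wholly on Opa1-207 and Opa1-208. By TPM over all models in both tables, inclusion of the 111-base exon was thus above that of the 54-base exon in each library, while the size of either is not settled by these tables.

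The Dnm1l exons lie at chr16:16342697-16342735 (39 bases), chr16:16318764-16318841 (78 bases) and chr16:16318445-16318477 (33 bases), on the minus strand. The 39-base exon lies in the part that encodes the GTPase domain, and the others lie in the variable region between the middle domain and the GTPase effector domain. Where both of the latter are skipped, the flanks join as ggatcacgggacaaggtcccatctgcaggt. Dnm1l-201, which lacks all 3 exons, led with 22.9 and 25.4 TPM, or 58.6% and 60.1% of the gene (59.4 ± 1.08%), and 45.5% and 43.8% by kallisto-style values. Dnm1l-203, with the 78-base and 33-base exons, came next with 17.1% and 18.4%, and 26.3% and 24.3% by kallisto-style values.

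A further Dnm1l exon of 47 bases (chr16:16341422-16341468), skipped by Dnm1l-204 alone, was in 98.1% and 100% of the TPM that spans it (85.5% and 80.3% by kallisto-style values). The 78-base exon was included in 18.7% and 20.7% of the TPM that spans it (19.7 ± 1.40%; 27.0% and 25.6% by kallisto-style values). The 33-base exon was included in 26.4% and 29.8% (28.1 ± 2.46%), against 46.7% and 47.8% by kallisto-style values. That gap between the tables lay mainly in Dnm1l-204, which holds the 33-base exon and took 1.87% and 0% by the RSEM-style and 14.1% and 19.1% by the kallisto-style table. In both tables and both libraries the 33-base exon was included more than the 78-base exon, as the models fix: every transcript with the 78-base exon also holds the 33-base exon. The 39-base exon, held by Dnm1l-202 alone, was included in 8.93% in replicate 1 and 2.30% in replicate 2 (6.57% and 5.99% by kallisto-style values). Dnm1l-202 was at 3.37 TPM (credibility bounds 2.04 to 5.35) and 0.93 TPM (0.28 to 1.98). These bounds did not overlap, but the kallisto-style levels of 2.74 and 2.75 TPM were alike, so the difference between the libraries appeared in the RSEM-style table only.

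**Figure D4:**
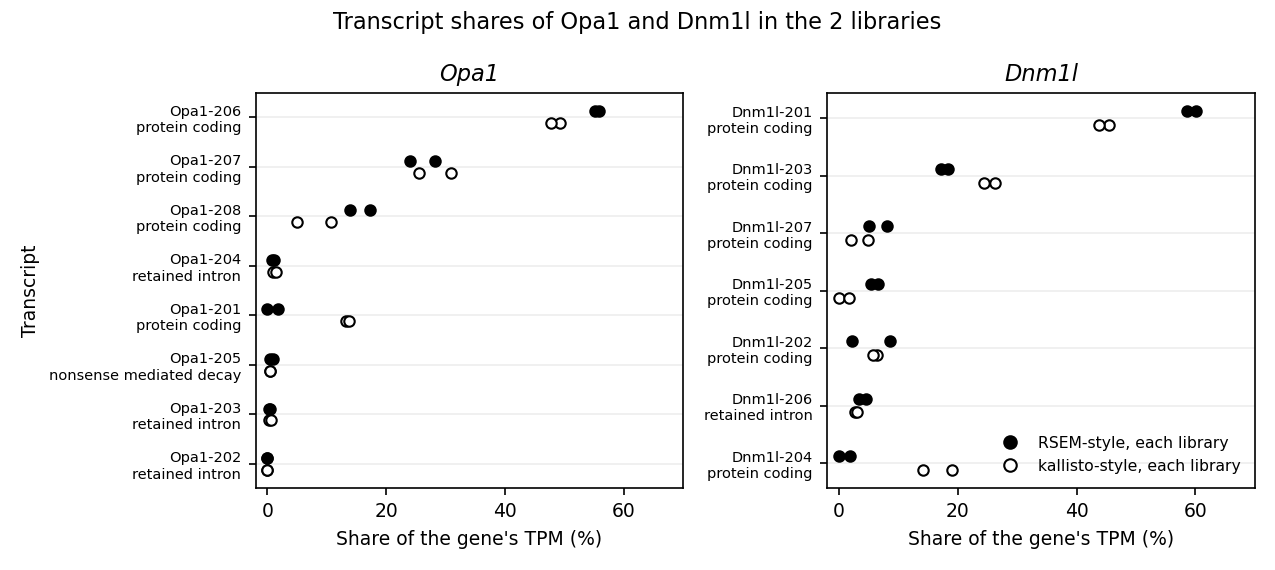
Share of the gene's TPM (percent) in each Opa1 transcript on the left and each Dnm1l transcript on the right, with filled points for the RSEM-style and open points for the kallisto-style value of each library. Opa1-206 and Dnm1l-201 led in both tables, and Opa1-201 and Dnm1l-204 stood apart between the tables.

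Mff, described in the same way after its values were seen, had 4 alternative coding exons. The 60-base exon (chr1:82747083-82747142) was in 74.6 ± 1.44% of the TPM that spans it, the 159-base exon (chr1:82741818-82741976) in 42.4 ± 1.48%, the 75-base exon (chr1:82737013-82737087) in 16.9 ± 0.78% and the 33-base exon (chr1:82745524-82745556) in 9.39 ± 2.12%. By kallisto-style values the order of these shares was the same, at 86.6%, 51.2%, 24.1% and 4.14%. As shares of expected counts they were 88.0%, 57.5%, 25.0% and 3.84%. With incomplete models left out, the 60-base, 159-base and 75-base exons were at 89.0%, 57.5% and 24.0% by the RSEM-style table. The 33-base exon has no value on that basis, since 0 complete protein-coding models hold it and it rests on Mff-207 alone. The size of these shares is thus not settled by these tables. The most abundant Mff transcript in both tables was Mff-202, with the 159-base and 60-base exons, at 15.4 and 14.9 TPM, or 20.02% and 19.8% of the gene (28.0% and 25.8% by kallisto-style values).

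**Figure D5:**
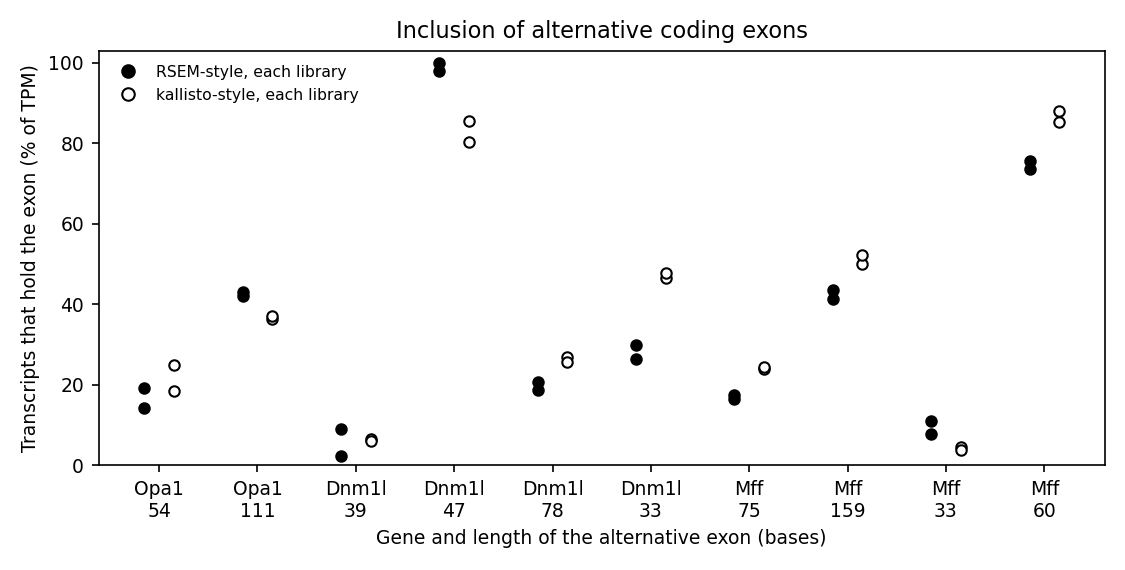
Share of TPM (percent) in transcripts that hold each alternative coding exon of Opa1, Dnm1l and Mff, out of the protein-coding transcripts that span it, with filled points for the RSEM-style and open points for the kallisto-style value of each library. The Dnm1l 33-base exon shows the widest gap between the tables, 28.1% against 47.2%, and the Opa1 111-base exon is at 42.5% and 36.8%.

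The promoters of these genes were searched for 3 short motifs, since the factors that bind them are known regulators of nuclear genes for mitochondrial proteins: GCGCA and GCGC with any base between them, the core of the NRF-1 site, CCGGAAG, the core of sites for GABP and other ETS factors, and AAGGTCA, the core of the site for estrogen-related receptors. RefSeq promoters (GRCm38.p6, 250 bases before to 50 after the start) were matched for all 10 genes, with 15 promoters in all, and both strands were read. CCGGAAG occurred in 6 of these 15, from 5 genes, against 8.86% of all 32851 promoters. The NRF-1 letters occurred in 2 of 15 against 4.60% of all promoters, and AAGGTCA in 0 of 15 against 4.72%. Promoters of the set had a median GC content of 56.7%, against 52.7% over all promoters. These shares are per promoter, Fis1 was counted with both of its promoters, and the part of GC content in them was not tested. Mfn2, Mff and Mief2 had no match to any of the motifs. To show where the matches lie, the one nearest before the start is printed for each gene that had one. The motif is in capitals, on the gene's strand.
Mfn1: atccgaagcgCCGGAAGtagccgcccc
Fis1: gaggcaccacCCGGAAGttcaggcttc
Mief1: gaggggccgaCCGGAAGtgcttccgcc
Yme1l1: gaggcttgctCCGGAAGcactgtacct
Opa1: gtggctccccGCGCATGCGCatgtcatccg
Oma1: ggaaaggtgtGCGCCTGCGCggagccggct
These stretches begin with the motif 44 bases before the start for Mfn1, 18 for Fis1, 65 for Mief1, 19 for Yme1l1, 59 for Opa1 and 23 for Oma1. The match in Oma1 is on the opposite strand, and Yme1l1 had a further match 73 bases before the start. Dnm1l had its only match after the start, and Mief1 and Yme1l1 also had matches there. Fis1 had a match after the start of its other promoter, at chr5:136961827-136962126. A match is a run of letters and not a measured binding site.

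Other genes of mitochondrial dynamics, from a list of helpers, modifiers, scaffolds and transport genes, gave the setting for these levels. Of 38 such genes found, 35 were at 1 TPM or more in both libraries, against 51.8% of protein-coding genes. The median over all 38 was 32.5 TPM. The cristae organisers, which hold the inner-membrane folds in place, had the highest median of the 6 lists, 142 TPM over 6 genes, with Minos1 at 315 ± 12.9 TPM and Immt at 253 ± 3.01 TPM. The prohibitins Phb2 and Phb, ring-forming scaffolds that steady Opa1 processing, were at 148 ± 1.63 and 139 ± 1.75 TPM. The kinase gene Pink1, which marks damaged mitochondria, was at 153 ± 3.34 TPM. Akap1, an outer-membrane anchor of protein kinase A that holds Dnm1l inactive, was at 46.7 ± 0.21 TPM.

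Among fusion helpers, Mtch2 was at 76.2 ± 1.04 and Miga2 at 30.02 ± 0.86 TPM, and the phospholipase gene Pld6 was under 1 TPM in both libraries (0.23 and 0.22). Among fission helpers, Mtfr1l was at 69.0 ± 0.42 TPM and Mtfp1, an inner-membrane protein, at 48.2 ± 3.76 TPM. Gdap1, known from nerve, was at 0.03 and 0.07 TPM and Mtfr2 at 0.28 and 0.49 TPM. The transport adaptors Trak1 and Trak2, which couple mitochondria to motors, were at 136 ± 1.55 and 67.6 ± 8.38 TPM.

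Between the libraries, 9 of the 36 genes tested passed the binomial test at any ratio, 3 higher and 6 lower in replicate 2, a share near the 22.0% of all genes, and 0 passed at 2-fold. Inf2, an actin nucleator at mitochondrial division sites, had a log2 ratio of -0.33 (adjusted p = 9.33e-06). Other genes that passed had log2 ratios of -0.10 for Mtch2, -0.08 for Pink1, -0.08 for Afg3l2, -0.04 for Immt, 0.15 for Mtfp1, 0.13 for Rhot2 and 0.10 for Trak2.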

How the data were processed

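Total RNA-seq of 2 heart libraries was analysed from the deposited tables. Per the file headers, the RSEM-style gene and transcript tables hold expected counts, TPM, credibility bounds of TPM (treated as a signal) and each transcript's percent of its gene. Kallisto-style transcript tables, also deposited, give TPM and estimated counts. The authors' readme names mm10 and annotation M21; the tools' versions were not given in the sources used here, and tool names come from column names. The 10 genes and the lists were chosen with earlier results of these data known. Named genes were the 10 members, the 2 highest of each list, list genes under 1 TPM or differing between libraries, and the top marker of lists. Of these, 1 gene is not reported here.

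Identifiers were matched to GENCODE M21; spike-ins (96) and 26249 other unannotated identifiers, with at most 2.84 counts in a library, were left out. Levels are gene TPM; pair ratios are log2 with a pseudocount of 0.1. Libraries were compared for genes holding 10 or more counts in each or 20 in total by a 2-sided exact binomial test on rounded expected counts, scaled by TMM (edgeR 4.0.16; R 4.3.3), with Benjamini-Hochberg adjustment at 0.05 and Clopper-Pearson intervals; the code was tested on simulated data. Quasi-likelihood tests need residual degrees of freedom, which single libraries do not leave. DESeq2 1.42.0 gave alternative size factors. Protein sequences were not used here. Alternatives were other tables, scalings, filters and units, and leaving out each library.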

Additional observations from a re-analysis of the deposited data

How the results depend on the processing

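No paired analysis was possible because all libraries form 1 group. Leaving out either library kept the direction of all 6 pair ratios. This only restates that both libraries had the same sign, since leaving out a library returns the ratio of the other. Leaving out a library was not run for the comparison between libraries, which needs both. All 10 genes stayed at 1 TPM or more in both libraries under every table and unit tried. Of the 6 pair ratios, 5 kept their sign under every alternative listed here. Mff over Fis1 reversed with kallisto-style TPM (-0.34) and with protein-coding transcripts only (-0.12). Leaving out incomplete models was not among these alternatives, and Opa1 lay below Dnm1l on that basis. With kallisto-style TPM the other ratios that moved by more than their SD were Mfn2 over Mfn1 (0.95), Opa1 over Mfn2 (-2.31), Mief1 over Mief2 (0.33) and Yme1l1 over Oma1 (1.25). With protein-coding transcripts only they were Mfn2 over Mfn1 (1.16), Mief1 over Mief2 (0.16) and Yme1l1 over Oma1 (1.27). With expected counts, which are not divided by length, all 6 moved: Mfn2 over Mfn1 1.80, Opa1 over Mfn2 -2.03, Opa1 over Dnm1l 0.84, Mff over Fis1 1.03, Mief1 over Mief2 1.15 and Yme1l1 over Oma1 2.66. Posterior mean TPM moved Mff over Fis1 (0.16) and Mief1 over Mief2 (0.15), and a pseudocount of 1 moved Mief1 over Mief2 (0.13).

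The number of the 10 genes that differed between libraries at any ratio was 1, and it was 3 with total counts (23.1% of all tested genes passed), 2 with kallisto-style counts (3721 of 17715 tested genes passed; Mfn1 joined Mfn2) and 0 with the edgeR exact test at an assumed coefficient of variation of 0.1 or 0.2. Over all genes the counts at any ratio were 3650, 475 and 230 for the binomial test and these edgeR settings, and at 2-fold 544 and, at 0.2, 230. The log2 ratio of replicate 2 over replicate 1 changed sign with total counts for Opa1 (0.0041) and Mief1 (0.035) and with kallisto-style counts for Mff (-0.0074); none of these passed the test either way. The share of Opa1-206 was 48.5% by kallisto-style TPM, 77.2% of expected counts and 56.6% of protein-coding TPM, and that of Dnm1l-201 was 44.7%, 65.4% and 61.8%. The cause of these shifts was not tested. Depth limits Oma1 most, with 435 and 561 counts.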
